A study of Mus musculus with 10 samples.

Results

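A set of 10 macrophage genes was followed across 7 mouse liver tissues measured by Visium, an assay that captures polyadenylated RNA on a slide of barcoded spots, each spot wide enough to hold several cells. The genes were found by symbol among the 31053 genes of the count tables, and all 10 were present. Of these, 5 are markers of resident Kupffer cells (Clec4f, Marco, Vsig4, Timd4 and Cd5l) and 5 are general macrophage genes (Adgre1, C1qa, C1qb, C1qc and Cd68). NEJ146, labelled total RNA where the others are labelled polyA RNA, was read as 4 adjacent 10 µm frozen sections, and NEJ634, NEJ687, NEJ723, NEJ638, NEJ654 and NEJ677 as 1 section each. The animals belong to the ABC-Myc model, in which Cre under the albumin promoter, active in the hepatocyte lineage, switches on a human MYC allele under the CAG promoter on a C57BL/6J background, and the controls are littermates that lack Cre, the MYC allele or both. In the study's text NEJ146, NEJ634, NEJ687 and NEJ723 are ABC-Myc tumours and the other 3 tissues healthy livers, whereas the labels call every sample hepatoblastoma, and neither gives the age of these animals. Each tissue was therefore kept as its own group, no tumour was averaged with another, and no p-value was possible with 1 tissue per group.

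Kupffer cells are the macrophages that live inside the liver sinusoids, where they clear bacteria, debris and aged red cells from portal blood. Their identity depends on signals from hepatocytes, stellate cells and sinusoidal endothelial cells, and it is marked by receptors that other macrophages mostly lack. Clec4f is a C-type lectin largely restricted to mouse Kupffer cells, Vsig4 (CRIg) is a complement receptor that captures opsonised bacteria, Marco is a scavenger receptor, Timd4 binds phosphatidylserine on dying cells and marks long-lived resident macrophages, and Cd5l (AIM) is a secreted scavenger protein. Adgre1 encodes F4/80, Cd68 is a lysosomal glycoprotein of most macrophages, and C1qa, C1qb and C1qc encode the chains of C1q, the recognition unit of the classical complement pathway.

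Tissue spots numbered 1890 to 4878 per section, and the sections held 61627315 to 117556249 unique molecules (UMIs) in all. Levels are given as CPM (UMIs of a gene over all UMIs of the tissue spots, multiplied by 1e+06), with an exact Poisson 95% interval that covers counting error only, or as mean ± SD over the 4 sections of NEJ146, which share 1 animal. The tissue spots of NEJ146 were taken as those with 8000 or more UMIs, and its libraries held more mitochondrial UMIs (6.78% to 7.22%) than the others (2.46% to 3.86%). Hepatocyte RNA was abundant in every tissue, with Alb between 7839 CPM in NEJ723 and 85700 CPM in NEJ654. In spots that pool cells, fewer macrophages and less RNA per macrophage cannot be told apart. RNA was also read outside the tissue outline, where spots held 27.3% to 43.0% of all UMIs in NEJ634, NEJ723, NEJ638, NEJ654 and NEJ677.

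The genes lie apart in the genome except for the C1q chains, which sit side by side on chromosome 4. On the GRCm38 build, GENCODE places C1qb at chr4:136880129-136886187, C1qc at chr4:136889804-136893065 and C1qa at chr4:136895917-136898803, all on the minus strand, within 18675 bases that hold no other protein-coding gene. Clec4f lies at chr6:83644542-83656187, Marco at chr1:120474538-120505024, Vsig4 at chrX:96247203-96293438 and Cd68 at chr11:69664213-69666153, each on the minus strand. Timd4 lies at chr11:46810800-46844332, Cd5l at chr3:87357881-87371073 and Adgre1 at chr17:57358691-57483527, each on the plus strand. None of them shared exons with another gene of its strand or overlapped a gene of the opposite strand.

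The upstream sequence of 4 of them is shown, since Clec4f and Vsig4 were the genes nearly lost from NEJ723 while Cd5l and C1qb were still well detected there. The RefSeq promoter table (GRCm38.p6) held 8 of the 10 genes, all but Adgre1 and C1qa. The stretches end before the annotated gene and run 5′ to 3′ on the strand of the gene, at chr6:83656188-83656366 (minus strand), chrX:96293439-96293688 (minus strand), chr3:87357631-87357880 (plus strand) and chr4:136886201-136886450 (minus strand). Capitals mark each match to TGCTGA, the half-site bound by MAF family factors, on either strand.
Clec4f: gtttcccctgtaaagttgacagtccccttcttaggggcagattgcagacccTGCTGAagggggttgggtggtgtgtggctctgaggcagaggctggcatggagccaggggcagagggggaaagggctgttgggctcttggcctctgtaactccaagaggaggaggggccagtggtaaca
Vsig4: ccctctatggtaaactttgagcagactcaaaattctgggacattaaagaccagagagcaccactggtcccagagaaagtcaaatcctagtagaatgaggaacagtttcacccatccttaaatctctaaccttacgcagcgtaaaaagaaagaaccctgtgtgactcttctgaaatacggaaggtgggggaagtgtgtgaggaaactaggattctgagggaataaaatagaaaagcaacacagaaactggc
Cd5l: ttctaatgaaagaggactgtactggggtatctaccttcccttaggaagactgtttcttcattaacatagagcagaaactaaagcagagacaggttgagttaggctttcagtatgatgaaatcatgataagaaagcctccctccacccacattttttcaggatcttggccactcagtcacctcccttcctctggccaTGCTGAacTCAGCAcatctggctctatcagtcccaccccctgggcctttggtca
C1qb: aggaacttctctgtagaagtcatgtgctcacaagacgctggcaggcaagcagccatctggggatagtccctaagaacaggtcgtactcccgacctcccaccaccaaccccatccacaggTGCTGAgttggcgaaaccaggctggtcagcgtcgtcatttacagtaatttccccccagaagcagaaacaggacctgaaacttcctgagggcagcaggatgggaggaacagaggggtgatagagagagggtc
TGCTGA was present in the 250 bases before the start of 4 of the 8 genes (Clec4f, Timd4, Cd5l and C1qb), against 16.1% of all 32536 promoters. GAGGAAG, a PU.1 motif, was present in 3 of the 8 (Marco, Cd5l and C1qc), against 10.7% of all promoters. TGGGAA, an RBPJ motif, was present in 3 (Clec4f, Marco and Cd68), against 21.6%. CACGTG, an E-box that TFE factors bind but that is not particular to them, was present in none, against 6.04%. Both strands were searched, no match overlapped another, and the Clec4f match to TGGGAA lies in the stretch not printed. The matches describe letters only.

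Clec4f differed most between tissues. Its level was 84.2, 88.3, 75.001 and 53.3 CPM in the NEJ146 sections, 96.0 in NEJ634, 146 in NEJ687, 77.1 in NEJ638, 152 in NEJ654 and 116 in NEJ677, but 0.275 CPM (95% interval 0.142 to 0.480) in NEJ723, from 12 UMIs among 43641797. NEJ638 thus exceeded NEJ723 by 280-fold (160 to 543). The other 6 tissues lay within a range of 75.2 to 152 CPM and NEJ723 stood alone. Most zonal hepatocyte genes were low in the same tissue, and their part in the result was not tested. All 5 pericentral genes were lowest in NEJ723, with a sum of 81.4 CPM against 221 to 6280 elsewhere and Cyp2e1 at 1.21 CPM against 45.6 to 3599. So were 4 of 5 periportal genes, whereas 14.8% of all genes were lowest there. The other periportal gene was highest in NEJ723, and the periportal sum was 1439 CPM there, 1409 in NEJ634 and 2175 to 4166 elsewhere. NEJ654 and NEJ687 were close at the top, with a ratio of 1.04 (1.003 to 1.07), and NEJ638 and NEJ146 did not differ beyond the spread of the NEJ146 sections.

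Vsig4 followed the same pattern. It measured 68.5, 73.5, 66.2 and 64.3 CPM in the NEJ146 sections, 49.2 in NEJ634, 83.7 in NEJ687, 22.5 in NEJ638, 44.4 in NEJ654, 37.1 in NEJ677 and 0.665 (0.445 to 0.954; 29 UMIs) in NEJ723. NEJ638, the next lowest, exceeded NEJ723 by 33.8-fold (23.4 to 50.8). The few molecules left in NEJ723 were denser at the margin of the tissue. Clec4f was at 1.05 CPM in the margin spots and 0.158 CPM in the interior, Vsig4 at 2.11 and 0.448 CPM, and off the tissue they were at 0.612 and 1.41 CPM. Margin exceeded interior 6.67-fold (1.78 to 24.9) for Clec4f and 4.71-fold (2.05 to 10.5) for Vsig4, while the summed general genes had a ratio of 0.9503 (0.914 to 0.988).

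Marco and Timd4 were also lowest in NEJ723 but were not lost. Marco measured 94.6, 93.5, 88.4 and 74.8 CPM in the NEJ146 sections, 150 in NEJ634, 413 in NEJ687, 27.9 in NEJ638, 25.5 in NEJ654, 26.9 in NEJ677 and 7.65 (6.85 to 8.52) in NEJ723. NEJ687 exceeded NEJ634, the next in order, by 2.75-fold (2.68 to 2.82), and neighbours in the order NEJ638, NEJ677 and NEJ654 had overlapping intervals. Timd4 had 11.1, 10.4, 10.0 and 9.19 CPM in the NEJ146 sections, 10.2 in NEJ634, 19.2 in NEJ687, 6.76 in NEJ638, 12.8 in NEJ654, 10.8 in NEJ677 and 1.47 (1.13 to 1.87) in NEJ723. NEJ654 exceeded NEJ634 by 1.26-fold (1.12 to 1.42) and NEJ677 by 1.18-fold (1.04 to 1.35), and NEJ634 lay within the spread of the NEJ146 sections.

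Cd5l differed less between tissues than Clec4f, Vsig4 and Marco. It measured 385, 342, 337 and 291 CPM in the NEJ146 sections, 233 in NEJ634, 609 in NEJ687, 90.6 (87.8 to 93.5) in NEJ723, 65.0 in NEJ638, 125 in NEJ654 and 99.2 in NEJ677. Here NEJ723 was not lowest and exceeded NEJ638 by 1.39-fold (1.33 to 1.46), or by 1.05-fold on the (CPM + 1) scale after DESeq2 scaling. Relative to the summed general genes it was lowest in NEJ723 too, at a log2 ratio of -2.55 against -1.64 to -0.67 elsewhere. Cd5l supplied most of the resident signal of NEJ723, 3954 of 4393 UMIs.

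The general macrophage genes were all above their NEJ638 level in NEJ723 on the CPM scale. C1qb measured 261, 267, 259 and 209 CPM in the NEJ146 sections, 258 in NEJ634, 354 in NEJ687, 207 in NEJ723, 72.1 in NEJ638, 107 in NEJ654 and 109.6 in NEJ677. C1qa measured 204, 206, 194 and 136 CPM in the NEJ146 sections, 156 in NEJ634, 240 in NEJ687, 124 in NEJ723, 56.1 in NEJ638, 100.3 in NEJ654 and 75.3 in NEJ677. C1qc measured 218, 222, 212 and 177 CPM in the NEJ146 sections, 187 in NEJ634, 264 in NEJ687, 142 in NEJ723, 55.0 in NEJ638, 84.2 in NEJ654 and 77.4 in NEJ677. For each C1q chain, therefore, NEJ723 lay below NEJ687, NEJ146 and NEJ634 and above NEJ638, NEJ654 and NEJ677, and NEJ146 and NEJ634 did not differ beyond the spread of the NEJ146 sections. Under TMM or DESeq2 scaling C1qa was lower in NEJ723 than in NEJ654, at 100.4 against 118 under TMM and 100.1 against 119 under DESeq2.

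The proportions of the 3 C1q chains were similar but differed between tissues beyond the spread of the NEJ146 sections. C1qb made up 36.8% to 43.8% of their summed CPM over the 7 tissues, C1qa 25.9% to 34.4% and C1qc 28.9% to 32.4%, with SDs of 0.836 to 1.79 percentage points over the NEJ146 sections. NEJ654 had the highest share of C1qa and the lowest of C1qb. The other proteins of the C1 complex and the classical pathway, made largely by hepatocytes, were measured beside them. None of 4 (C1ra, C1s1, C2 and C4b) had a 4-fold range, against 24.0% of all genes, and C2 was at 39.0 CPM in NEJ146 and 111 in NEJ638, its lowest and highest tissues.

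Cd68 measured 53.8, 50.9, 51.8 and 39.7 CPM in the NEJ146 sections, 54.4 in NEJ634, 69.1 in NEJ687, 48.6 in NEJ723, 10.6 in NEJ638, 14.7 in NEJ654 and 11.9 in NEJ677. NEJ723 did not differ from NEJ146 beyond the spread of its sections and was 4.60-fold (4.19 to 5.07) above NEJ638. Adgre1 measured 24.6, 26.4, 25.8 and 18.9 CPM in the NEJ146 sections, 23.9 in NEJ634, 40.1 in NEJ687, 11.0 in NEJ723, 9.05 in NEJ638, 14.1 in NEJ654 and 11.6 in NEJ677. For Adgre1, NEJ723 and NEJ677 had overlapping intervals. Scaling by edgeR's TMM or DESeq2's size factors made NEJ723 the lowest tissue for Adgre1.

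**Figure D1:**
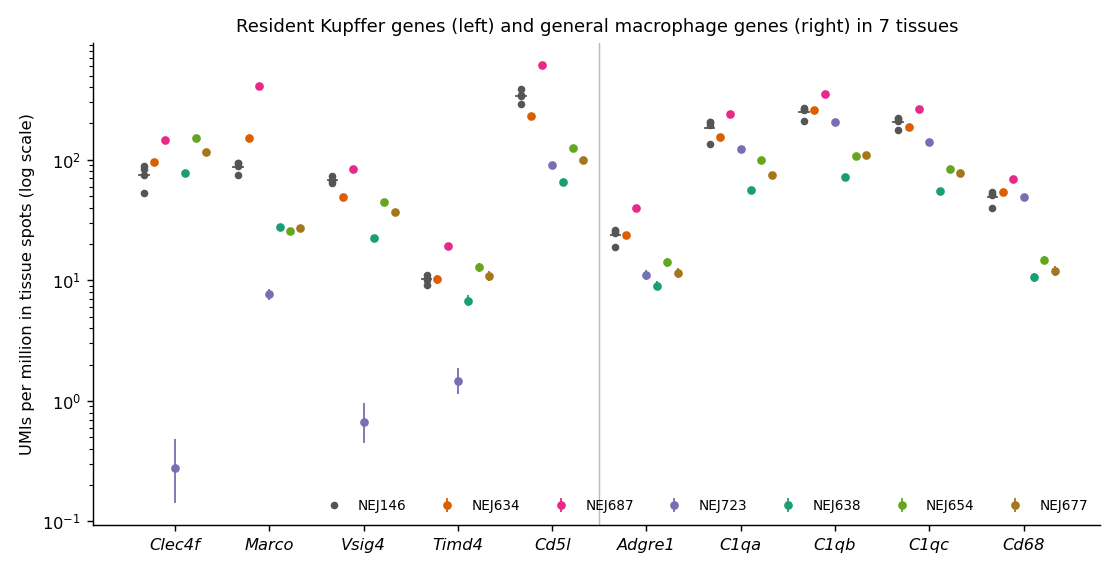
CPM of the 10 genes (log axis) in the 7 tissues, resident Kupffer genes left of the line and general macrophage genes right of it. Points of NEJ146 are its 4 sections with their mean as a bar, and the other points are single sections with exact Poisson 95% intervals. Clec4f at 0.275 CPM and Vsig4 at 0.665 CPM in NEJ723 are the lowest points, while C1qb is at 207 CPM there.

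All 10 genes had a range of 4-fold or more in (CPM + 1) over the 7 tissues, against 24.0% of the 12648 genes with a mean of 1 CPM or more. Their median log2 range was 2.82, beside 1.27 for all those genes. Under TMM or DESeq2 scaling 6 of the 10 kept a 4-fold range, and Adgre1, C1qa, C1qb and C1qc did not, with ranges of 3.60-, 3.43-, 3.95- and 3.84-fold under TMM. Clec4f and Vsig4 were 4-fold or more below the next lowest tissue in NEJ723, as were 0.419% of genes, and with Marco and Timd4 the number at 2-fold or more was 4, against 1.53% of genes. Under TMM scaling Marco was also 4-fold or more below (4.29-fold). In NEJ687 9 of the 10 were highest, against 17.3% of genes, Clec4f being the exception. Genes of some other blood cells moved with them, and their part in the result was not tested. All 5 neutrophil genes were highest in NEJ687, with a sum of 1045 CPM against 7.48 to 677 elsewhere. So were 3 of 4 erythroid genes, whose sum was 1732 CPM there, 1835 ± 61.8 in NEJ146 and 30.7 to 583 elsewhere. Other blood cell lists did not peak in NEJ687. The sums in NEJ687 and NEJ634 were 8.29 and 15.3 CPM for T and NK cells and 110 and 140 CPM for monocytes. B and plasma cell genes summed to 1.79 CPM in NEJ687 against 2.13 to 4.21 elsewhere, and dendritic cell genes to 2.11 CPM against 0.730 to 2.80. In NEJ638 6 were lowest on the CPM scale, against 5.89% of genes, and in NEJ723 the other 4, against 14.8%. Under TMM or DESeq2 scaling 5 were lowest in NEJ638 and 5 in NEJ723. All shares of genes given here are on the CPM scale. No such share was computed under TMM or DESeq2 scaling, so the rescaled counts have none to be read against.

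Summed over each set of 5, the resident genes were at 580 ± 64.2 CPM (SD, n = 4 sections) in NEJ146, 538 in NEJ634, 1271 in NEJ687, 100.7 in NEJ723, 199 in NEJ638, 359 in NEJ654 and 289.7 in NEJ677. The general genes were at 714 ± 90.2 CPM in NEJ146, 679 in NEJ634, 967 in NEJ687, 532 in NEJ723, 203 in NEJ638, 320.5 in NEJ654 and 286 in NEJ677. The log2 ratio of the resident to the general sum was -0.30 ± 0.07 in NEJ146, -0.33 in NEJ634, 0.40 in NEJ687, -0.03 in NEJ638, 0.16 in NEJ654 and 0.02 in NEJ677. In NEJ723 it was -2.40 (-2.45 to -2.36), far outside the spread of the NEJ146 sections. The span from NEJ723 to NEJ687 was 2.80 on the log2 scale and fell to 0.73 without NEJ723, and NEJ723 was lowest under all 11 settings compared. The highest tissue was NEJ687 in 7 of them, which include the main setting and those that changed only the spots of NEJ146. It was NEJ654 in the other 4, those without Cd5l, without Marco, without the C1q chains and with mean log2 levels. These 4 are all the settings that changed the lists or the averaging. Without Cd5l the ratio of NEJ723 was -5.73.

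**Figure D2:**
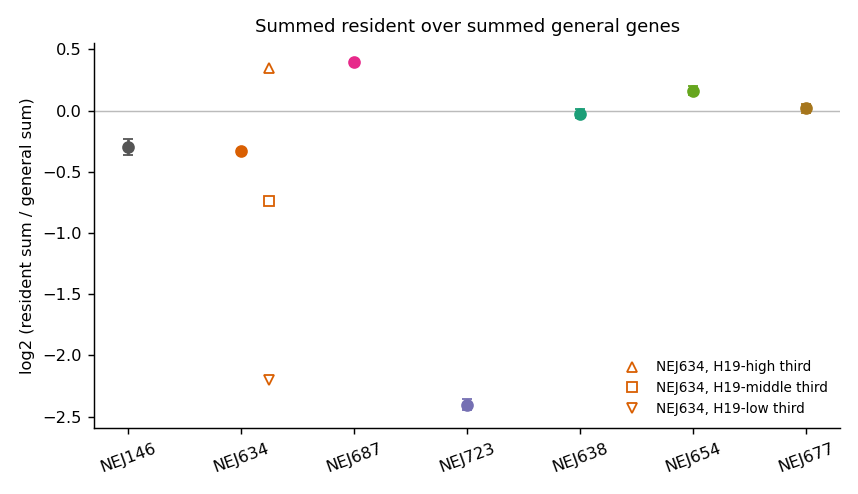
Log2 ratio of the summed resident to the summed general genes. Filled points are tissues (NEJ146: mean and SD of 4 sections; others: exact 95% interval, often smaller than the point), and open symbols are 3 equal groups of the NEJ634 spots ranked by H19. NEJ723 at -2.40 and the H19-low spots of NEJ634 at -2.20 lie below all the rest.

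Of 9 further Kupffer identity genes, 7 had a 4-fold range (24.0% of all genes). In NEJ723 4 were lowest (14.8% of all genes) and 2 were highest, a share below the 30.0% of all genes. In NEJ638 4 were lowest as well (5.89% of all genes). Their sum was 520 CPM in NEJ723 against 204 to 782 elsewhere. Most of the sum in NEJ723 came from Vcam1, at 294 CPM, so it does not show the level of the list as a whole. Folr2, a folate receptor of resident macrophages, was at 0.344 CPM in NEJ723 against 8.56 to 27.8 CPM elsewhere, and the complement component gene C6 was at 1.01 CPM against 5.39 to 62.1. Clec1b, the lectin CLEC-2, was at 14.6 CPM in NEJ723, within the range of 7.13 to 46.0 of the other tissues. Vcam1 was at 294 CPM in NEJ723, its highest tissue, against 9.37 to 263 CPM elsewhere, and it is not specific to macrophages. Fcna, encoding ficolin-A, was at 72.0 CPM in NEJ723 and 61.7 to 172 CPM elsewhere. The heme- and iron-recycling genes had 4 of 5 members with a 4-fold range (24.0% of all genes). Spic, the factor of red pulp macrophages that is induced by heme, was highest in NEJ723 at 16.1 CPM, while Cd163, the haemoglobin scavenger receptor, was lowest there at 1.12 CPM against 2.13 to 9.41.

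Of 13 other general macrophage genes, 8 had a 4-fold range (24.0% of all genes), 9 were lowest in NEJ638 (5.89% of all genes) and 2 in NEJ723, a share near the 14.8% of all genes. Lyz2 was at 254 CPM in NEJ723, between 71.0 CPM in NEJ638 and 468 CPM in NEJ634, and Mpeg1, encoding perforin-2, was at 85.6 CPM, between 18.9 and 111 CPM. Laptm5 was at 46.4 CPM in NEJ723 and Fcgr3 at 24.7 CPM, both above their levels in NEJ638, NEJ654 and NEJ677 (13.3 to 21.5 and 7.09 to 10.9 CPM). Csf1r, the receptor on which macrophage survival depends, was at 46.0 CPM in NEJ723 and 31.7 to 114 CPM elsewhere.

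Summed, genes of monocytes and of lipid-associated macrophages were higher in NEJ723, NEJ146, NEJ634 and NEJ687 than in NEJ638, NEJ654 and NEJ677. Their part in the result was not tested. The summed monocyte genes were at 96.7 CPM in NEJ723, 64.7 ± 10.8 in NEJ146, 140 in NEJ634 and 110 in NEJ687, and at 21.6 to 26.1 in NEJ638, NEJ654 and NEJ677. All 6 lipid-associated genes had a 4-fold range, against 24.0% of all genes. Their sum was 1567 CPM in NEJ634, 1344 in NEJ723, 884 in NEJ687, 827 ± 41.8 in NEJ146 and 92.2 to 347 in NEJ638, NEJ654 and NEJ677. It did not keep the order of the general sum. Gpnmb was at 13.6 CPM in NEJ723 and 15.5 to 24.6 CPM in NEJ146, NEJ634 and NEJ687 but at 0.0255 to 0.235 CPM in NEJ638, NEJ654 and NEJ677, and Trem2 was at 9.42 CPM and 10.0 to 17.4 CPM against 0.484 to 1.13 CPM. Of the 3 peritoneal macrophage markers, Alox15 was at 0.0917 CPM or less in every tissue and Gata6, which other cells also make, at 3.66 to 15.2 CPM. Prg4, encoding lubricin, was the 1 with a 4-fold range, at 8.25 CPM in NEJ723, 90.2 in NEJ687 and 17.1 to 53.4 in the other tissues, and the list summed to 18.9 CPM in NEJ723 and 93.8 in NEJ687. Summed sinusoidal endothelial genes were lowest in NEJ723, at 52.6 CPM against 93.8 to 201 elsewhere, as was Clec4g at 2.66 CPM against 18.1 to 70.1, but Stab2, another endothelial scavenger receptor, was at 29.5 CPM there and 28.9 in NEJ634. Among the niche signals, 3 of 7 had a 4-fold range, not far from the 24.0% of all genes, and Gdf2 (BMP9) was at 2.57 CPM in NEJ723 against 8.89 to 21.4 elsewhere and Bmp10 at 0.115 against 0.402 to 3.26, whereas Csf1, a growth factor for macrophages, was at 15.1 CPM in NEJ723 against 8.605 to 18.0, and Dll4, a Notch ligand, was at 6.58 CPM there and 5.99 in NEJ687.

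Within NEJ634 the resident genes were confined largely to one side of the section, while the general genes were more evenly spread. Moran's I, which is near 0 for a scattered signal and near 1 for one that is alike in neighbouring spots, was 0.787 for the resident sum and 0.270 for the general sum in NEJ634. In NEJ687 the values were 0.489 and 0.434, in NEJ146 0.455 and 0.308, and in NEJ723 0.212 and 0.460. In NEJ638, NEJ654 and NEJ677 they were 0.0741 to 0.127 for the resident sum and 0.0439 to 0.154 for the general sum.

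**Figure D3:**
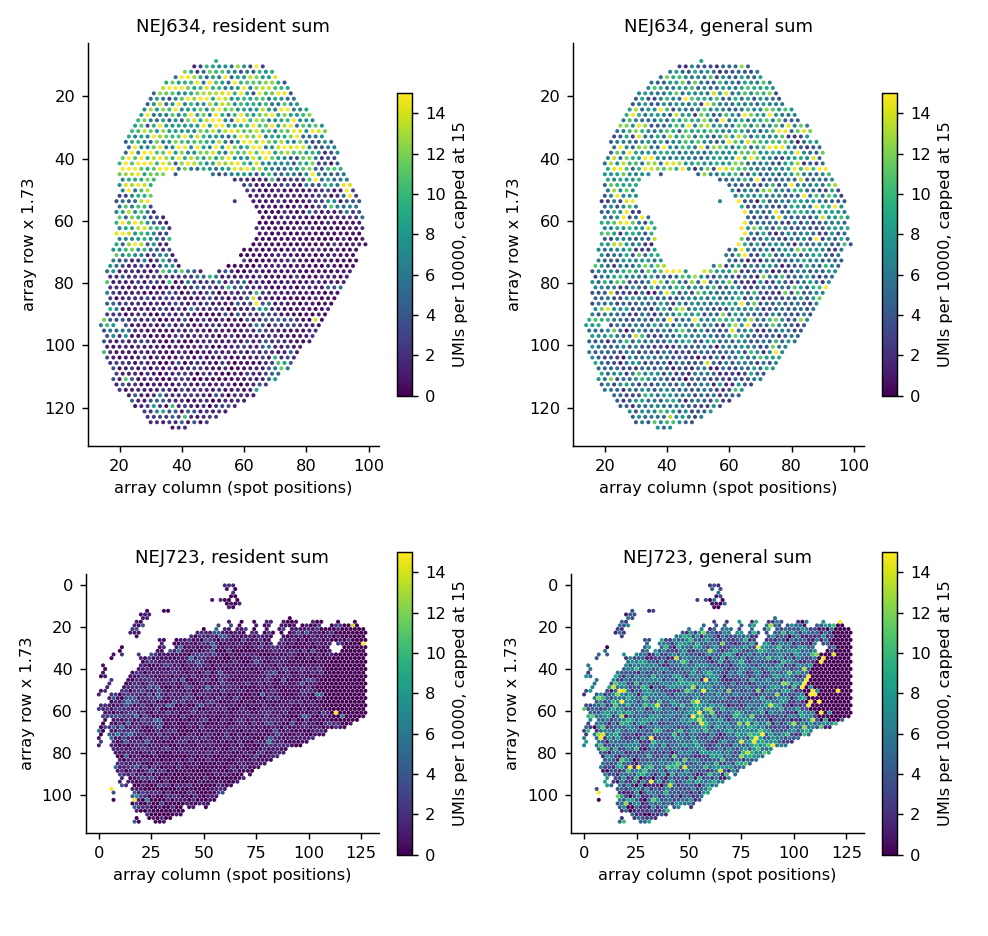
Tissue spots of NEJ634 (top) and NEJ723 (bottom) at their array positions, coloured by UMIs of the 5 resident genes (left) or the 5 general genes (right) per 10000 UMIs of the spot, capped at 15. In NEJ634 the resident genes fill the top of the section and are sparse below (Moran's I 0.787), while the general genes are present throughout (0.270). In NEJ723 the general genes are present in most of the section and the resident genes are low throughout.

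The region was described with a gene outside every macrophage list, H19, an imprinted fetal transcript that was itself patchy in NEJ634. The split was chosen after the maps were seen. Tissue spots were ranked by H19 and cut by rank into 3 groups of 630 spots, H19-low, middle and H19-high, the outer pair having median depths of 29158 and 34042 UMIs. H19 was at 549 and 5588 CPM in these groups.

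The 5 resident genes were far lower in the H19-low spots. Clec4f was at 18.3 CPM there, 67.0 in the middle spots and 183 in the H19-high spots, a ratio of low to high of 0.1004 (0.0897 to 0.112). Marco was at 25.6, 105 and 288 CPM (ratio 0.0886), Vsig4 at 8.06, 35.3 and 94.1 CPM (0.0856), Timd4 at 3.06, 6.38 and 18.97 CPM (0.161) and Cd5l at 70.1, 183 and 406 CPM (0.173). All 5 were thus 4-fold or more lower in the H19-low spots, as were 0.624% of the 12812 genes compared, whose median ratio was 1.06. Because the split was chosen after the maps of the resident genes were seen, these values describe the region and are no test.

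The general genes changed much less between the same spots. Adgre1 was at 16.7 CPM in the H19-low spots and 32.6 CPM in the H19-high spots, a ratio of 0.511 (0.446 to 0.584), and C1qa, C1qb and C1qc had ratios of 0.755, 0.729 and 0.704. Cd68 was at 56.1 and 52.8 CPM, a ratio of 1.06 (0.976 to 1.15). The log2 ratio of the resident to the general sum was -2.20 in the H19-low spots, -0.74 in the middle spots and 0.35 in the H19-high spots. Over all their tissue spots NEJ723 was at -2.40 and NEJ687 at 0.40. Those are values of whole sections, unlike the selected groups of spots compared here. As in NEJ723, Clec4g was low where the resident genes were low, at 3.90 against 32.5 CPM, and Stab2 less so, at 15.9 against 40.4 CPM. Lyz2 was at 522 and 383 CPM and the stromal gene Col1a1 at 398 and 166 CPM, higher in the H19-low spots, whereas Csf1r was at 48.1 and 106 CPM and Tyrobp at 201 and 281 CPM, lower there. Hepatocyte genes differed between the same spots in both directions, with Alb at 16245 and 10166 CPM and Cps1 at 939 and 2353 CPM.

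The same split was weaker in the other tissues with 1000 CPM or more of H19. In the 4 NEJ146 sections the resident sum had ratios of 0.719 to 0.903 between the H19-low and the H19-high spots and the general sum ratios of 1.05 to 1.26, and in NEJ687 the ratios were 0.999 and 1.09. The log2 ratio of the 2 sums was lower in the H19-low spots in all 5 of these sections, at -0.62 to -0.46 against -0.16 to -0.01 in NEJ146 and 0.33 against 0.46 in NEJ687. Median depth differed between these groups in either direction. H19 alone did not place a tissue, since NEJ723, NEJ654 and NEJ677 were at 12.0, 6.31 and 4.86 CPM of H19 and of these only NEJ723 was low in Clec4f and Vsig4.

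Over the spots of NEJ634, the resident sum correlated with the lipid-associated list at rho = -0.68 (Spearman, depth taken out; 1890 spots of 1 section). Fabp5, a fatty acid-binding protein not specific to macrophages, correlated alone at -0.67, and the list without it at -0.33. Cd63 was at -0.39 and Cd9 at -0.23, while Lgals3 (0.02), Gpnmb (0.05) and Trem2 (0.09) were near 0. In the other 6 tissues the list correlated at -0.00184 to 0.134.

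In NEJ638, NEJ654 and NEJ677 the genes were set against the axis of the liver lobule. Portal blood enters the lobule at its periportal side and leaves by the central vein, and hepatocytes on the way express different enzymes. Spots were ranked by 5 periportal genes over 5 pericentral genes and cut into 3 equal groups, pericentral, middle and periportal, none of the score genes being a macrophage gene, and these 2 programmes opposed each other over spots at rho = -0.79, -0.86 and -0.67 in NEJ638, NEJ654 and NEJ677. They did not oppose each other in NEJ634 (0.31), NEJ687 (0.01), NEJ723 (0.10) or the NEJ146 sections (0.07 to 0.19), so the axis has no lobular reading there.

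Marco had the steepest gradient of the 10 genes in NEJ654 and NEJ677. It was at 21.6 CPM in the pericentral spots, 33.7 in the middle spots and 30.1 in the periportal spots of NEJ638, at 17.2, 24.9 and 35.0 CPM in NEJ654 and at 12.6, 25.8 and 42.5 CPM in NEJ677. The periportal spots exceeded the pericentral spots by 1.39-fold (1.22 to 1.59), 2.03-fold (1.75 to 2.37) and 3.38-fold (2.86 to 4.03). Adgre1 was higher by 1.43-fold (1.14 to 1.80), 1.46-fold (1.20 to 1.79) and 1.85-fold (1.47 to 2.33). On the (CPM + 1) scale these 2 genes were higher by 25% or more in all 3 tissues, as were 3.44% of the 11366 genes compared.

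The other members did not pass this threshold in all 3 tissues. As a share of all UMIs, 9 of 10 in NEJ638 and 10 of 10 in NEJ654 and NEJ677 were higher in the periportal spots. The median ratios were 1.15, 1.41 and 1.61 against 1.01, 0.95 and 0.95 for all genes. Timd4 in NEJ638 was the exception at 0.909 (0.689 to 1.20). In that tissue the intervals of Vsig4 (0.956 to 1.29), Cd5l (0.982 to 1.16) and Cd68 (0.902 to 1.41) also included 1. Clec4f had ratios of 1.19, 1.38 and 1.69. The resident sum was higher by 1.15-, 1.44- and 1.70-fold and the general sum by 1.17-, 1.36- and 1.60-fold. In NEJ638 the middle spots held the most of both sums, 231 and 232 CPM. Of the endothelial genes, Clec4g and Stab2 did not share the gradient. Clec4g had ratios of 0.987, 0.946 and 1.02 and Stab2 of 0.816, 0.790 and 0.783. The bile duct gene Krt19 did rise towards the periportal spots, with ratios of 2.45, 3.08 and 4.84. Its counts were low, with 7 UMIs in the pericentral and 33 in the periportal spots of NEJ677. The part of other cell types in the gradient was not tested. Depth was lower in the periportal spots (medians of 11524, 17057 and 14579 UMIs) than in the pericentral spots (14657, 18966 and 15588). In NEJ638 the counts of both sums were lower in the periportal spots. The resident sum had 3394 UMIs in the pericentral and 3223 in the periportal spots, and the general sum 3448 and 3330. Only Marco (423 and 484) and Adgre1 (142 and 167) had more UMIs in the periportal spots there. In NEJ654 the sums rose from 4501 to 5930 and from 4116 to 5127 UMIs, and in NEJ677 from 2911 to 4819 and from 2966 to 4627.

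**Figure D4:**
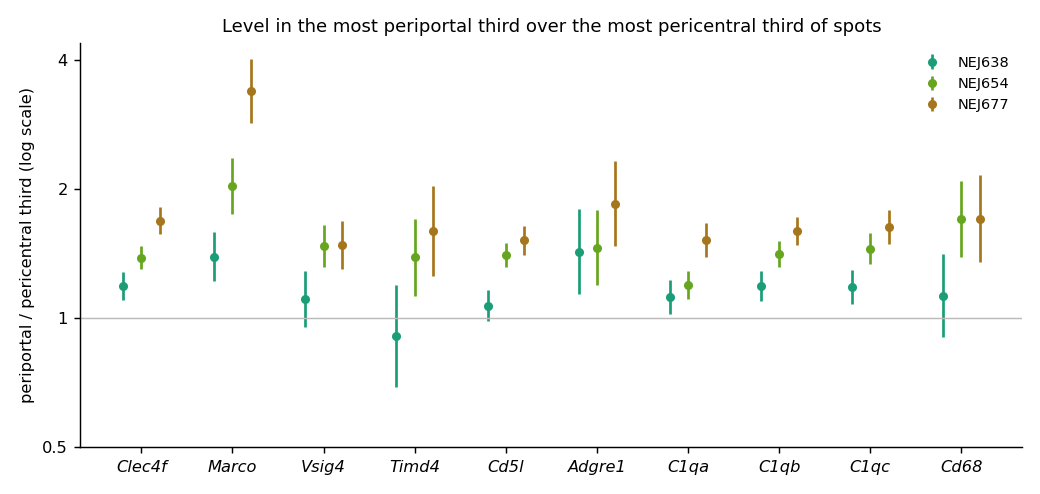
Ratio of CPM in the most periportal spots (by rank, 1 of 3 equal groups) to that in the most pericentral spots (log axis) for each gene in NEJ638, NEJ654 and NEJ677, with exact 95% intervals from counts. Marco has the highest ratio in NEJ654 (2.03) and NEJ677 (3.38), and all points but Timd4 in NEJ638 are above 1.

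Along the same score the resident and general sums parted in NEJ146, where the programmes were not opposed. The resident sum had ratios of 1.09 to 1.27 over the 4 sections and the general sum 0.875 to 0.915, but the resident genes did not move together. Marco was at 1.38 to 1.81, Cd5l at 1.23 to 1.39 and Timd4 at 1.14 to 1.54, whereas Clec4f was at 0.611 to 0.834, below 1 in all 4 sections, and Vsig4 at 0.823 to 1.04. The resident ratio was 0.841 in NEJ634, 0.966 in NEJ687 and 0.970 (0.898 to 1.05) in NEJ723.

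Whether the 10 genes shared spots was read from Clec4f, by comparing tissue spots with and without a Clec4f UMI. NEJ723 had only 12 such spots and was left out of the comparison over tissues. Timd4 and Marco were higher in Clec4f spots by 25% or more in each of the 6 other tissues, and they were the only genes of 10940 to be so, 0.0183% of them. Of the 9 other members, 8 were higher in all 6 tissues, as were 2.02% of genes. Genes of other cell types moved with Clec4f spots in some tissues, and their part in the result was not tested. In the NEJ146 sections Alb had ratios of 1.28 to 1.52 and Clec4g of 1.37 to 1.55, above the 1.09 to 1.19 of the general sum. In NEJ634 Clec4g was at 3.87, Stab2 at 1.87 and Alb at 0.807 against 1.24 for the general sum, and in NEJ687 Alb was at 1.28 against 1.27. In NEJ638, NEJ654 and NEJ677 the 3 genes were at 0.918 to 1.15 and the general sum at 1.21 to 1.51. Clec4f spots were deeper in each section, with medians of 14396 and 8210 UMIs in NEJ687, for example. Spots were then thinned to 5000 UMIs each, with shallower spots left out. The general sum was still higher in Clec4f spots in these 6 tissues, by 1.19- to 1.43-fold.

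Vsig4 had ratios of 1.77 in NEJ146, 6.06 in NEJ634, 1.78 in NEJ687, 1.23 in NEJ638, 1.58 in NEJ654 and 1.74 in NEJ677. Timd4 had ratios of 1.33 to 1.70 outside NEJ634 and 3.002 in it, and Cd5l of 1.20 to 1.46 and 3.54. The C1q chains lay between 1.11 and 1.54 in the 6 tissues, below the resident genes in NEJ634 but overlapping their range in NEJ687, NEJ638 and NEJ677. Cd68 was the exception: its ratios were 1.05 in NEJ146, 0.992 in NEJ634, 1.10 in NEJ687, 1.15 in NEJ638, 0.920 in NEJ654 and 1.44 in NEJ677. In NEJ723 the 12 spots with Clec4f had 0.912 times the general level of the rest (0.766 to 1.08), which leaves no difference detectable at this depth.

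**Figure D5:**
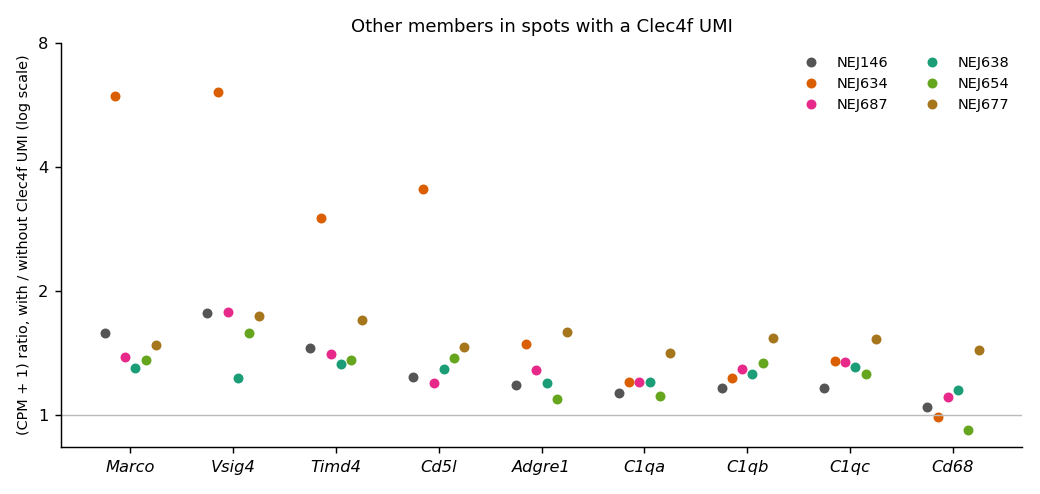
Ratio of (CPM + 1) in tissue spots with a Clec4f UMI to that in spots without one (log axis), for the 9 other genes in the 6 tissues other than NEJ723. In NEJ634 the resident genes reach 3.002 (Timd4) to 6.06 (Vsig4), while Cd68 is at 0.992.

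Shares of spots with a UMI did not keep the order of the levels. Clec4f was found in 62.1% of tissue spots in NEJ146, 66.1% in NEJ634, 66.3% in NEJ687, 60.3% in NEJ638, 85.5% in NEJ654, 65.4% in NEJ677 and 0.501% in NEJ723. With each spot of 5000 or more UMIs thinned to 5000, the shares were 28.2%, 29.2%, 47.2%, 32.2%, 53.4%, 40.4% and 0.0943%. Shallower spots were left out, 0 in NEJ146, 3 in NEJ634, 623 in NEJ687, 180 in NEJ638, 194 in NEJ654, 454 in NEJ677 and 275 in NEJ723. The thinned shares thus cover fewer spots than the raw shares outside NEJ146. C1qb was found in 84.6% of NEJ723 spots, or 63.8% after thinning. Off the tissue the Clec4f share was 45.5% to 67.8% in the 5 single-section tissues that expressed it, so a UMI in a spot does not place a Kupffer cell there.

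Over spots, the genes most like the resident sum were Fcna (mean r = 0.37 over the 7 tissues), Ctsb (0.35), Igfbp2 (0.35), Cps1 (0.31), Wfdc17 (0.31), Ccl6 (0.30), Tyrobp (0.29), Ctsd (0.28), Lgmn (0.28) and Selenop (0.28), among genes of 5 CPM or more in every tissue, whose median was 0.04. Igfbp2 and Cps1, hepatocyte genes, had their highest r in NEJ634, 0.69 and 0.71. Those most like the general sum were Tmsb4x (0.40), Ctsb (0.40), Ctsd (0.37), Lyz2 (0.36), Tyrobp (0.36), Psap (0.35), Lgmn (0.33), Fcna (0.31), Fcer1g (0.30) and Ctss (0.30). Spots of a section share its library and depth, so these values describe the sections only. Over the 7 tissue levels, the genes closest to the resident sum among 8021 were Ddah1 (r = 0.98), Cd38 (0.98), Msr1 (0.97), Lcp1 (0.96) and Tmco1 (0.96), with 7 points each.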

How the data were processed

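Visium data of 10 sections of 7 mouse tissues were analysed. Per the labels, reads were processed with Space Ranger 1.3 (mm10) for the 6 tissues with 1 section and with Cell Ranger 6.0 for NEJ146, for which the build is not given in the sources used here. The tables deposited hold unnormalised UMI counts, by gene and spot, as the authors obtained them, and in-tissue calls are given for those 6 tissues. Here the counts of tissue spots were summed per section and given as CPM. Resident and general lists of 5 genes each were compared as log2 ratios of summed CPM, with exact Poisson or binomial-based 95% intervals that cover counting error only. A pseudocount of 1 CPM and a mean of 1 CPM or more were used for counts over all genes. Moran's I used the 6 neighbouring spots. Python 3.11.15, scipy 1.17.1, edgeR 4.0.16 and DESeq2 1.42.0 (both for scaling factors only) were used, and the calls were tested on simulated data. Adjacent sections of NEJ146 are not separate animals. All 10 members were named, with up to 4 genes of each further list that had the widest log2 range, the 10 genes most like each sum over spots and the 5 most like the resident sum over tissues. Other genes in the text (such as Fcna, Spic, Cd163, Csf1r, Bmp10, Dll4, Csf1, Clec4g, Stab2 and H19) were chosen after their values were seen. The members and lists were chosen with earlier results of these data known. Doublets were not called, since a spot is a region and not a cell. Groups came from the tissue names in the labels. Alternatives in scaling, spot choice, depth and list membership were computed.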

Additional observations from a re-analysis of the deposited data

Results flagged for a closer look

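Among the 4 adjacent NEJ146 sections, section 4 stood apart from the other 3 for C1qb, at 209 CPM against 259 to 267, a gap of 0.865 of the whole range. It stood apart likewise for the summed general genes, at 581 CPM against a highest section of 773, a gap of 0.839 of the range. Such gaps exceed Dixon's critical value for 4 samples, which chance passes in about 1 of 20 groups, and 13 measures were examined. Section 4 was lowest for all 10 genes, but the share of all genes lowest there was not computed. A shift of the whole library can therefore not be told apart from a trait of these genes. The log2 ratio of resident to general genes, at -0.37 to -0.24 over the sections, was not set apart.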

How the results depend on the processing

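Of 53 alternative settings over 4 results, 45 were counted as near the value reported, and part of these could not have moved it. For the count of genes with a 4-fold range, near took in 7 genes without NEJ723, 8 with a pseudocount of 5 CPM and 9 when thinned. The count of genes with a 4-fold range, 10 as reported, was 6 with TMM factors and 6 with DESeq2 size factors, and TMM factors ran from 0.796 (NEJ677) to 1.28 (NEJ634), a shift of -0.33 to 0.36 on the log2 scale. The span of the resident to general ratio, 2.80 on the log2 scale, was 3.91 as a difference of mean log2 levels, 5.27 without Cd5l, 2.57 without Marco, 2.89 without the C1q chains, 2.68 with 8000 or more UMIs in every section and 0.73 without NEJ723, a setting chosen after seeing the data. The first 4 of these spans end at NEJ654 in place of NEJ687. Each other setting kept it within 0.07, the SD over the NEJ146 sections. Leaving out each NEJ146 section gave 10 genes and a span of 2.80 each time. NEJ146 was neither the highest nor the lowest tissue for any of the 10 genes or for the ratio. Changes to its sections or spots alone were therefore no test of either result, and removing mitochondrial UMIs cancels in the ratio. As a share of all UMIs, resident genes were higher in the spots with the higher periportal to pericentral score in 4 tissues (5 when thinned). Of these, NEJ146, and NEJ723 when thinned, have no opposed programmes. General genes were higher in Clec4f spots in 6 tissues (7 when thinned or with Cd5l in place of Clec4f). The tissue added is NEJ723. When thinned, only 0.0943% of its spots held Clec4f, too few to read. Cd5l was found in 67.7% of its tissue spots, and the general sum was 1.20-fold higher in those than in the rest. No paired analysis was possible because NEJ146 alone has several sections. With 12 and 29 UMIs, depth limits where Clec4f and Vsig4 remain in NEJ723.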
